A study of Mus musculus with 12 samples.

Results

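Mammals carry 6 actin genes, and all 6 were followed here in embryonic mouse hearts: *Acta1* (skeletal alpha-actin), *Actc1* (cardiac alpha-actin), *Acta2* (smooth muscle alpha-actin), *Actg2* (smooth muscle gamma-actin), *Actb* (beta-actin) and *Actg1* (gamma-actin). They were taken by symbol from 20368 genes in the deposited value table and all 6 passed the filter on low values, a mean of at least 0.5 RPKM over the libraries of a fit. RPKM, the count scaled to the depth of the library and the length of the gene, sets levels of different genes side by side, as far as those lengths are right. The genes were chosen by family, with earlier results of these libraries in view, and attention was drawn to the family by the measured *Acta1* values of the E12.5 mutants and controls, so the E12.5 comparison of the genotypes is given below as a description with no p-value.

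The libraries were RNA-seq of whole hearts at embryonic days E11.5 and E12.5 from the CD1 strain (a CD1-ICR background in the study's methods), 3 libraries for each stage and genotype and 12 in all. Mutants were Mesp1Cre;Hira-/fl and controls Mesp1Cre;Hira+/fl. Both carried the Mesp1Cre driver, active in the mesoderm that forms the heart, and 1 floxed *Hira* allele. The other allele was a constitutive null in mutants and wild type in controls. *Hira* encodes a chaperone of the histone variant H3.3. The comparison of genotypes sets cardiogenic mesoderm with no working *Hira* allele beside cardiogenic mesoderm that keeps 1, the wild-type allele. Cells of a mutant heart outside the Mesp1 lineage kept the floxed allele intact as their 1 working allele, while such cells of a control heart kept both alleles. No label says how many hearts went into a library, and p-values measure the spread between these libraries.

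Actin is the monomer of the thin filament in muscle and of the cytoskeleton in every cell. The 4 muscle isoforms are named for the tissue of the adult in which each predominates, yet the embryonic heart transcribes several at once. In rodent cardiomyocytes *Actc1* is the main sarcomeric actin, *Acta1* accompanies it in the fetus and returns in hypertrophy, and *Acta2* is an early, transient actin of the heart tube that later stays in the smooth muscle of vessels. *Actb* and *Actg1* encode the cytoplasmic actins of all cells. Muscle actin promoters carry CArG boxes, the sequence bound by serum response factor (SRF) with its myocardin family partners.

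The genes lie apart in the genome (GRCm38, GENCODE M21, all on the minus strand). *Acta1* is at chr8:123891769-123894751, *Actc1* at chr2:114047282-114053548, *Acta2* at chr19:34241090-34255590, *Actg2* at chr6:83512905-83536265, *Actb* at chr5:142903115-142906754 and *Actg1* at chr11:120345690-120348542. Their coding sequences are much alike. Between the coding sequences of *Acta1* and *Actc1*, 86.2% of bases are identical, and over all 15 pairs the identity ranges from 81.5% to 88.7%, highest for *Actb* with *Actg1*. The stretch of 60 coding bases in which *Acta1* and *Actc1* differ most, bases 436 to 495 from the start codon, is shown to make plain what separates reads of the 3 alpha-actins. Capitals mark the 19 positions at which they are not all the same.
Acta1: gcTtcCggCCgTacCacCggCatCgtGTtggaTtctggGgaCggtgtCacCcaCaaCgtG
Actc1: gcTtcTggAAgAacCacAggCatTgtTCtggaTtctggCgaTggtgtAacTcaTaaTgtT
Acta2: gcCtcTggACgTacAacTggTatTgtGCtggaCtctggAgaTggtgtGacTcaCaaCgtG

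The longest run that *Acta1* and *Actc1* share without a difference is 29 bases, ctggctcccagcaccatgaagatcaagat, at coding bases 964 to 992. In windows of 50 bases along the main transcript, 2% of the *Acta1* windows and none of the 1424 windows of *Actc1* occur in another of the 6 genes. The share is 0.352% for *Acta2* and 0 of 1284 windows for *Actg2*. Reads of that length from the 4 muscle actins can thus mostly be told apart, though the read length of these libraries is not given in the sources used here. The cytoplasmic pair is less certain, since 14.2% of the *Actb* windows and 56.7% of the *Actg1* windows also occur in a transcript of a gene outside the 6, and the sources used here do not say how reads with several matches were counted. Levels of *Actg1*, and to a lesser degree of *Actb*, are uncertain for that reason.

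RefSeq promoter sequences (GRCm38.p6) were at hand for 4 of the 6 genes, *Acta1*, *Actc1*, *Acta2* and *Actg1*. Of these, 3 held a CArG box between 250 bases before and 50 bases after the start site. In 27025 genes with such a window, 1.81% held one. The motif reads alike on both strands. *Acta2* held no complete CArG box, but a pair of matches with 1 mismatch, a kind found in 22.5% of all windows. The windows of 30 bases are shown to place these matches side by side, with the match in capitals. They lie at chr8:123894829-123894858 (*Acta1*), chr2:114052903-114052932 (*Actc1*), chr11:120348566-120348595 (*Actg1*), chr19:34255438-34255467 and chr19:34255388-34255417 (*Acta2*), all read on the minus strand. Positions are counted from the RefSeq start sites, which differ from the GENCODE gene ends given above. The RefSeq start site of *Acta2* lies inside the first exon of the main GENCODE transcript. That of *Acta1* lies upstream of the GENCODE gene, and those of *Actc1* and *Actg1* lie inside theirs.
Acta1, -83 to -54: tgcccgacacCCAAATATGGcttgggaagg
Actc1, -57 to -28: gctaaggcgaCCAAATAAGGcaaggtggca
Actg1, -100 to -71: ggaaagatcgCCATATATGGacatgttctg
Acta2, -94 to -65, 1 mismatch: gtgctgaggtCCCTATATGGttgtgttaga
Acta2, -44 to -15, 1 mismatch: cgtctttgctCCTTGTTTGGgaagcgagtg

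The 150 bases before the *Acta1* start site, chr8:123894776-123894925, show that box with the TATA sequence near the 3′ end of the window: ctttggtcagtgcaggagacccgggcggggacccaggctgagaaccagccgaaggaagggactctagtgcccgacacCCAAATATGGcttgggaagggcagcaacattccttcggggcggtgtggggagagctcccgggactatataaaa. A match is a description of the letters, and no binding was measured in these libraries.

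The 12 libraries held between 11994148 and 17483982 counts. Whole-gene *Hira* counts overlapped between the genotypes at both stages, from 60.9 to 86.0 CPM (counts scaled to library depth) in E12.5 controls and 71.1 to 80.5 CPM in E12.5 mutants, but the deletion takes out 1 exon and the remaining exons are counted, so these values do not check the labels. Markers of cardiomyocytes were high throughout, with a summed level of the 10 genes listed between 17301 and 25131 CPM. Y-linked counts marked all 3 E11.5 control libraries but 1 of 3 E11.5 mutants as male, and 1 of 3 libraries in each E12.5 group, so that sex overlaps with genotype at E11.5 and with stage in the controls. The labels give no processing date, and stage cannot be told apart from any batch that followed it.

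*Actc1* was the dominant actin in every library. Averaged over all 12 libraries its level was 3497 RPKM, rank 3 among 17827 genes with reads, and it alone took 0.441% to 0.544% of all counts. *Acta2*, with a mean of 978 RPKM, came next, then *Actb* with 569 RPKM, *Actg1* with 300 RPKM and *Acta1* with 242 RPKM. *Actg2* lay far below the others at 6.45 RPKM, between 65 and 217 counts a library. Together the 6 genes took 0.726% to 0.964% of the counts of a library. These are bulk levels, in which fewer cells of a type and less RNA per cell cannot be told apart.

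In the controls this order held at both stages with no overlap between neighbours. In E11.5 controls *Actc1* stood 3.7 times above *Acta2* in mean level, *Acta2* 1.63 times above *Actb*, *Actb* 1.8 times above *Actg1*, *Actg1* 1.64 times above *Acta1*, and *Acta1* 27.7 times above *Actg2*. In the mutants the lower end of the order changed. *Acta1* and *Actg1* overlapped in both mutant groups, with *Acta1* the higher of the pair in all 3 E11.5 mutants (1.11 to 1.27 times *Actg1*) and *Actg1* between 0.91 and 1.52 times *Acta1* in the E12.5 mutants. All other neighbours stayed apart in the mutants as well. The gene lengths in the deposited values were shorter than the exonic lengths of the annotation, and unevenly so. They were 0.933 of it for *Acta1*, 0.713 for *Actg1* and 0.705 for *Actb*. Ratios between genes, and the order of *Acta1* and *Actg1* in the mutants, therefore depend on the lengths used. Comparisons of 1 gene between groups do not.

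**Figure D1:**
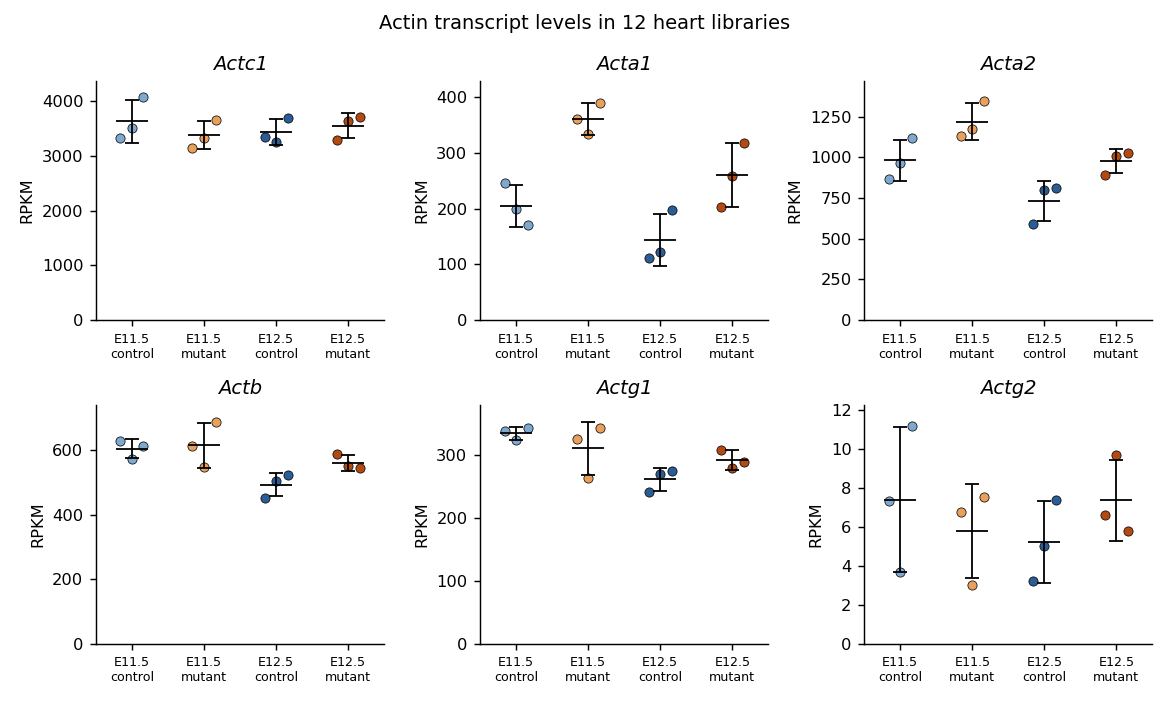
Level of each actin gene in RPKM (vertical axes, each from 0) in the 4 groups, with 1 point per library and the mean ± SD of 3 libraries as a bar. *Acta1* and *Acta2* points of the mutants lie above those of the controls at each stage, while *Actc1* points overlap in all groups.

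At E11.5, *Acta1* and *Acta2* were higher in every mutant than in every control, and the other 4 actins overlapped. *Acta1* measured 245, 199.9 and 169.7 RPKM in the 3 control libraries, with 360.1, 333 and 389.9 RPKM for the 3 mutant libraries. The lowest mutant thus lay well above the highest control. The mean was 205 ± 38.0 RPKM in controls and 361 ± 28.4 RPKM in mutants (SD, n = 3 per group), a log2 fold change of 0.81 (SE 0.16, 95% interval 0.45 to 1.18). In edgeR's quasi-likelihood test the adjusted p was 0.106 over 12197 genes, so that *Acta1* did not pass the threshold of 0.05, and over the 17 alternatives it ranged from 3.45e-04 to 0.415. It passed with DESeq2, and in edgeR with no filter on low values (adjusted p = 0.0473).

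*Acta2* measured 864, 968 and 1116 RPKM in E11.5 controls, with 1132, 1177 and 1348 RPKM for the mutants. The gap between the groups was smaller than the spread within either of them. The log2 fold change was 0.31 (SE 0.15, 95% interval -0.02 to 0.64, adjusted p = 0.532 in edgeR). The other sarcomeric actin, *Actc1*, measured 3319, 3508 and 4070 RPKM for the control hearts, with 3147, 3329 and 3651 RPKM for the mutant hearts. These ranges overlapped, with a log2 fold change of -0.11 (SE 0.14, 95% interval -0.43 to 0.21).

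*Actb* and *Actg1* overlapped too, with log2 fold changes of 0.03 (SE 0.13) and -0.11 (SE 0.14). *Actg2* varied most between replicates, from 3.71 to 11.2 RPKM in controls and from 3.03 to 7.56 RPKM in mutants. Its log2 fold change of -0.36 had an SE of 0.43, and its 95% interval, -1.34 to 0.62, held no change as well as a fall of 2-fold. With sex as a covariate the small negative values of *Actc1*, *Actg2* and *Actg1* became small positive ones (0.02, 0.04 and 0.05).

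A gene was called when its adjusted p was no higher than 0.05 and its change no smaller than 1.5-fold. By this, 0 of the 6 actins were called at E11.5, against 0.115% of all genes tested (14 of 12197). By an unadjusted p under 0.05, 1 actin (*Acta1*) passed in edgeR, as did 10.2% of all genes tested (1242). DESeq2 called 1 actin, again *Acta1*, among 248 genes. Groups that did not overlap were found for 2 of 6 actins, both higher in mutants, and for 8.23% of all genes tested in that direction.

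At E12.5, *Acta1* was again higher in every mutant than in every control, as were *Acta2*, *Actb* and *Actg1*. *Acta1* measured 111, 122 and 198 RPKM in the 3 control libraries, with 203, 258 and 318 RPKM for the 3 mutant libraries. The highest control came close to the lowest mutant without reaching it. The mean was 144 ± 47.1 RPKM in controls and 259.7 ± 57.3 RPKM in mutants (SD, n = 3), a log2 fold change of 0.85 (SE 0.20). The thresholds used elsewhere were passed by 1 of the 6 actins, *Acta1*, and by 2.95% of all genes tested (362 of 12257). Since these are the values that drew attention to the family, that count is no test of *Acta1* and nothing is read from it. The count was 0 with DESeq2, with all 12 libraries in a single fit and when E12.5 control 1 or 2 or E12.5 mutant 2 or 3 was omitted (4 of 6 single omissions).

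*Acta2* measured 592, 799 and 810 RPKM in E12.5 control hearts, with 892, 1007 and 1027 RPKM for the mutant hearts, with no overlap and a log2 fold change of 0.41 (SE 0.11). *Actb* did not overlap either, at 453 to 523 RPKM against 544 to 589 RPKM (log2 fold change 0.18, SE 0.08). *Actg1* ran from 241 to 275 RPKM in controls and from 279 to 309 RPKM in mutants (0.16, SE 0.08). *Actc1* again overlapped, with means of 3431 ± 232 and 3551 ± 225 RPKM and a log2 fold change of 0.05 (SE 0.08). In all, 4 of 6 actins did not overlap between the genotypes at E12.5, all higher in mutants, as did 13.6% of all genes tested in that direction, and the rule that chose the genes had used this comparison.

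**Figure D2:**
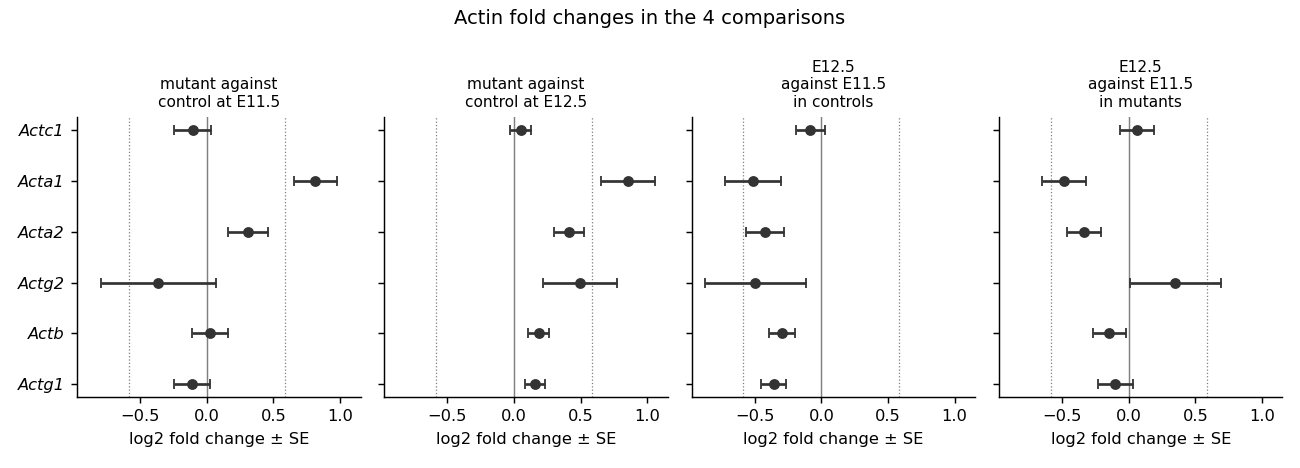
Log2 fold change of the 6 actins (horizontal axes) with its SE as a bar, in 4 panels, 1 for each comparison. Dotted lines mark a change of 1.5-fold and the solid line no change. *Acta1* lies at 0.81 and 0.85 in the 2 comparisons of genotypes and at -0.51 and -0.49 in the 2 comparisons of stages, while *Actc1* stays within 0.11 of 0 in all 4.

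From E11.5 to E12.5 in the controls, *Acta2*, *Actb* and *Actg1* were lower in every E12.5 library than in every E11.5 library. *Acta2* went from a mean of 983 ± 127 to 734 ± 123 RPKM (SD, n = 3), which is -0.42 on the log2 scale (SE 0.14, adjusted p = 0.0735 in edgeR). *Actb* went from 605 ± 29.2 to 494 ± 36.4 RPKM (-0.29, SE 0.10, adjusted p = 0.0719 in edgeR). *Actg1* went from 335 ± 10.3 to 262 ± 18.2 RPKM. Its adjusted p of 0.0393 in edgeR passed the threshold, but its log2 fold change of -0.36 (SE 0.09) lay under 1.5-fold, and it was therefore not called.

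*Acta1* overlapped between the stages in controls, since E12.5 control 3, at 198 RPKM, exceeded the lowest E11.5 control. The stages differed by -0.51 on the log2 scale (SE 0.21, adjusted p = 0.117 in edgeR). Without E12.5 control 3 the value was -0.81 and *Acta1* was called (adjusted p = 0.0241). With sex as a covariate the value was -0.05. *Actc1* did not separate the stages in controls, with a log2 fold change of -0.08 (SE 0.11, 95% interval -0.33 to 0.16). *Actg2* had a log2 fold change of -0.50 (SE 0.38).

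In the mutants, *Acta1* and *Acta2* were lower in every E12.5 library than in every E11.5 library. *Acta1* went from 361 to 259.7 RPKM (log2 fold change -0.49, SE 0.17, adjusted p = 0.379 in edgeR) and *Acta2* from 1219 ± 114 to 975 ± 72.7 RPKM (-0.33, SE 0.13, adjusted p = 0.455 in edgeR). *Actb* (-0.15, SE 0.12) and *Actg1* (-0.10, SE 0.13) overlapped between the stages, as did *Actc1* (0.06, SE 0.13) and *Actg2* (0.35, SE 0.34). These comparisons share libraries with those of the genotypes above.

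With stage, 0 of 6 actins were called in controls, against 5.28% of all genes tested, and 0 of 6 in mutants, against 0.556%. An unadjusted p under 0.05 was reached in edgeR by 4 actins in controls (*Acta1*, *Acta2*, *Actb* and *Actg1*), where 32.8% of all genes tested reached it, and by 2 in mutants (*Acta1* and *Acta2*), where 9.27% did. DESeq2 called 0 actins in either, among 798 and 227 genes. Lower in all E12.5 libraries were 3 of 6 actins in controls, where 18.6% of all genes tested were, and 2 of 6 in mutants, where 8.52% were.

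Whether the genotypes differed by unequal amounts at the 2 stages was fitted as an interaction over all 12 libraries, and 0 of the 6 actins passed. The interaction contains the E12.5 difference of the genotypes, which drew attention to the family. Its values are therefore a description, and nothing is concluded from them about *Acta1*. For *Acta1* the difference of the 2 effects was 0.04 on the log2 scale (SE 0.30, 95% interval -0.61 to 0.69), an interval wide enough to hold a change of 1.5-fold in either direction. For *Acta2* it was 0.10 (SE 0.19). No actin reached an unadjusted p under 0.05 and DESeq2 called none of the 6. Of all 12270 genes tested, 0% were called in edgeR, with 551 at an unadjusted p under 0.05 and 43 called in DESeq2.

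The make-up of the actin pool was then followed by class. Counts of each gene were divided by its length and expressed as a share of the summed 6 actins, as the skeletal (*Acta1*), cardiac (*Actc1*), smooth muscle (*Acta2* and *Actg2*) and cytoplasmic (*Actb* and *Actg1*) class. The shares need no scaling between libraries, but they add up to 100%, so a higher share of a class lowers the others. Over all libraries the cardiac class held 56.3% to 70.5% of the pool, the smooth muscle class 12.6% to 21.1%, the cytoplasmic class 14.1% to 17.9% and the skeletal class 2.34% to 6.45%.

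**Figure D3:**
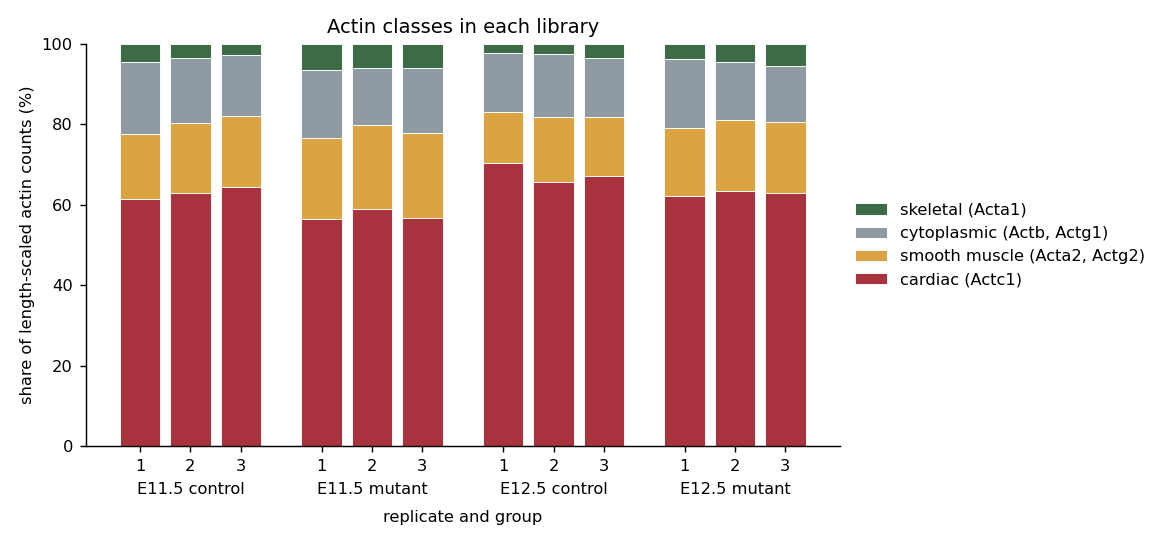
Share of the 4 actin classes in the length-scaled actin counts of each library, in percent (vertical axis), with 1 stacked bar per library and 3 replicates per group. The cardiac segment is tallest in E12.5 controls (65.7% to 70.5%) and shortest in E11.5 mutants (56.3% to 58.9%), and the skeletal and smooth muscle segments run the other way.

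With stage the pool shifted toward the cardiac class. Its mean share went from 60.1% at E11.5 to 65.3% at E12.5, a difference of 5.19 percentage points (exact permutation test of stage within genotype, two-sided, p = 0.005, the smallest that its 400 arrangements allow, adjusted over the 4 classes p = 0.02). The smooth muscle share fell from 18.96% to 15.96% (exact permutation p = 0.01, adjusted p = 0.02). The skeletal share fell from 4.87% to 3.69% (exact permutation p = 0.025, adjusted p = 0.0333). The adjusted p of the skeletal share rose above 0.05 without E11.5 control 1 or 2, E11.5 mutant 1 or 3, or E12.5 control 1 or 2, and reached 0.08 there. The cytoplasmic share, 16.1% and 15.0%, did not pass (exact permutation p = 0.185). These tests took no account of sex, which overlaps with stage in the controls. The male E12.5 control, replicate 3, had a skeletal share of 3.59%, within the 2.68% to 4.54% of the E11.5 controls, all male. E12.5 controls 1 and 2 had 2.34% and 2.47%. In the mutants, where sex did not follow stage, the mean skeletal share went from 6.1% to 4.6%. The male E12.5 mutant, replicate 1, had 3.84%, the lowest of its group, beside 4.49% and 5.39%. The male E11.5 mutant, replicate 3, had 6.07%, between the 5.89% and 6.45% of the others. The part of sex in these shares was not tested.

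The stage difference of the cardiac share ran the same way in both genotypes. In controls it went from 62.9% ± 1.46 to 67.8% ± 2.46 and in mutants from 57.3% ± 1.35 to 62.9% ± 0.580 (SD, n = 3). Neither pair of ranges overlapped. The E12.5 mutants, at 62.2% to 63.4%, lay within the range of the E11.5 controls, 61.4% to 64.4%. The smooth muscle share was likewise 17.4% ± 0.371 in E12.5 mutants and 17.1% ± 0.886 in E11.5 controls.

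Between the genotypes at E11.5, 3 of the 4 classes did not overlap. The control libraries had skeletal shares of 4.54%, 3.59% and 2.68%, the mutant libraries 6.45%, 5.89% and 6.07%. Their smooth muscle shares were 16.1%, 17.4% and 17.8% for controls, with 20.4%, 20.9% and 21.1% for mutants. For the cardiac share the control values were 61.4%, 62.9% and 64.4%, and the mutant values 56.3%, 58.9% and 56.8%. Mutants thus had more of their actin pool in *Acta1* and *Acta2* and less in *Actc1*. Each of the 3 differences (2.53, 3.66 and -5.56 percentage points) had an exact permutation p of 0.1, which is the smallest that 3 libraries against 3 allow (adjusted p = 0.133), so the design could not reach 0.05. The cytoplasmic share overlapped, at 16.4% ± 1.399 and 15.7% ± 1.26 (exact permutation p = 0.5).

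At E12.5, given as a description, the skeletal share was 2.34% to 3.59% in controls and 3.84% to 5.39% in mutants. The smooth muscle share was 12.6% to 16.2% and 17.0% to 17.7%, the cardiac share 65.7% to 70.5% and 62.2% to 63.4%. The cytoplasmic share overlapped, at 14.5% to 15.6% and 14.1% to 17.0%.

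Proportions between pairs of actins within a library also need no scaling. At E11.5, *Acta1* made up 5.43% ± 1.44 of the sum of *Acta1* and *Actc1* in controls and 9.67% ± 0.585 for mutants (SD, n = 3). At E12.5 it was 3.97% ± 0.980 and 6.77% ± 1.04. For *Acta2* over *Actc1* the E11.5 control and mutant means were 0.2701 ± 0.00855 and 0.361 ± 0.00788, and those of E12.5 were 0.214 ± 0.0344 and 0.275 ± 0.00327. In both proportions the mutants lay above the controls in all libraries of a stage. *Acta1* over *Acta2* overlapped between the genotypes at both stages, with ranges of 0.152 to 0.284 and 0.283 to 0.318 at E11.5 and of 0.153 to 0.244 and 0.228 to 0.309 at E12.5.

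*Actb* and *Actg1*, the cytoplasmic pair, kept a nearly constant proportion. Their ratio stayed between 1.77 and 2.08 in all 12 libraries, from 1.80 ± 0.0430 in E11.5 controls to 1.99 ± 0.0993 in E11.5 mutants. All 3 E11.5 mutants lay above the E11.5 controls in this ratio, and the E12.5 groups overlapped. Over the 12 libraries the Pearson r of their log2 CPM was 0.93, and 0.93 also after group means were taken out. These values share the scaling of the libraries, and both genes have matches in other transcripts.

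**Figure D4:**
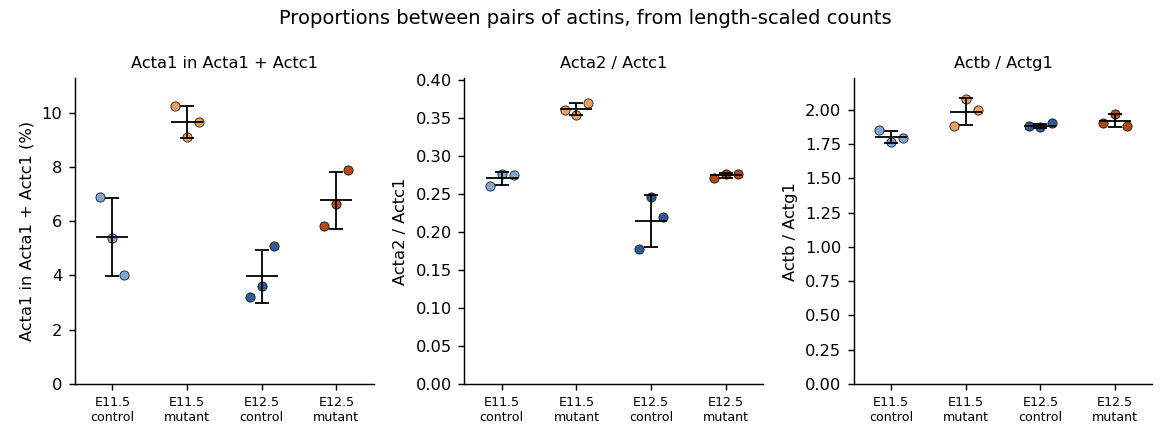
Proportions between pairs of actins from length-scaled counts in the 4 groups: *Acta1* as a percentage of *Acta1* plus *Actc1*, *Acta2* over *Actc1*, and *Actb* over *Actg1* (vertical axes from 0). Points are libraries and bars the mean ± SD of 3, and the mutant points lie above the control points of their stage in the first 2 panels but overlap at E12.5 in the panel of *Actb* over *Actg1*.

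Across the 12 libraries *Acta1* and *Actc1*, the sarcomeric pair, had a Pearson r of 0.02 in log2 CPM. *Acta1* and *Acta2* had an r of 0.82, and 0.32 after group means were taken out. *Actc1* and *Acta2* had an r of 0.29, and 0.74 after group means were taken out. The genes most alike to each actin over the 12 libraries, of 12270 tested, were *Cnn1* (r = 0.93), *Isyna1* (0.92) and *Prmt8* (0.91) for *Acta1*, and *Akr1b8* (0.95), *Mthfd2* (0.94) and *Arhgdib* (0.93) for *Acta2*. *Actc1* was most alike to *Mtfr1l*, *BC004004* and *Rab2a* (r = 0.87 for all 3). *Actb* was most alike to *Pigm* (0.95), *Amdhd2* (0.95) and *Rab34* (0.95), *Actg1* to *Actb* (0.93), *Basp1* (0.92) and *Amn1* (0.91), and *Actg2* to *Strap* (0.88), *Sfxn4* (0.87) and *Gm5617* (0.86). The points share 4 groups and 1 scaling, and the top 3 of so many genes are high by selection.

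*Cnn1*, calponin 1, binds actin in smooth muscle and in the early heart. At E11.5 it ran from 333 to 350.1 CPM in controls and from 375 to 483 CPM in mutants, and at E12.5 from 252 to 335 CPM and from 334 to 428 CPM. The genotypes did not overlap at E11.5 and overlapped narrowly at E12.5. At E11.5 mutants differed from controls by 0.26 on the log2 scale (SE 0.14, adjusted p = 0.592 in edgeR).

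The partners of actin in the thin filament and Z-disc, 27 genes of which 25 were tested at E11.5, had a median log2 fold change of 0.01 between the genotypes at E11.5, where the median over all genes was 0.00014. None was called at E11.5. *Lmod3*, leiomodin 3, which nucleates and lengthens sarcomeric thin filaments, had the lowest p of the list. It measured 25.2, 27.1 and 27.3 CPM for the controls of E11.5, with 40.2, 51.4 and 51.0 CPM for their mutants. Its log2 fold change there was 0.84 (SE 0.14, adjusted p = 0.0815 in edgeR), and the groups stood apart. At E12.5, given as a description, *Lmod3* was the 1 gene called of 24 tested, beside 2.95% of all genes tested (362 of 12257). It was higher in mutants by 0.84 on the log2 scale (SE 0.15). Its levels ran from 18.8 to 26.3 CPM in controls and from 34.7 to 49.1 CPM in mutants. *Tmod2*, a tropomodulin that caps the slow end of the filament, had the next lowest p at E11.5 (log2 fold change 0.51, SE 0.20, adjusted p = 0.416 in edgeR).

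With stage none of the 25 partners was called in controls and none of 24 in mutants. The 2 with the lowest p in controls were *Tpm4*, a tropomyosin (log2 fold change -0.37, SE 0.11, adjusted p = 0.0526 in edgeR), and *Tmod1*, the tropomodulin of cardiomyocytes (0.44, SE 0.13, adjusted p = 0.0548 in edgeR). In mutants they were *Tpm2* (0.25, SE 0.13) and *Tpm3* (-0.21, SE 0.11).

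Factors that fold, bind and recycle actin monomers, 20 genes in the table and tested, had 0 calls in each of the 4 comparisons. Between the genotypes at E11.5 their median log2 fold change was 0.02, and *Gsn*, the severing protein gelsolin (0.29, SE 0.13, adjusted p = 0.489 in edgeR), and *Cfl2*, muscle cofilin (-0.18, SE 0.12, adjusted p = 0.714), had the lowest p. At E12.5 the lowest were *Dstn*, destrin, with a log2 fold change of 0.37 (SE 0.07), and *Tmsb10*, a thymosin that holds monomers (0.26, SE 0.07). With stage in controls their median was -0.24 beside 0.01 over all genes, and 4 of the 20 had a positive value. *Gsn* (0.50, SE 0.13, adjusted p = 0.0367 in edgeR) and *Cct8*, a subunit of the chaperonin that folds actin (-0.41, SE 0.11, adjusted p = 0.0425 in edgeR), passed the p threshold but lay under 1.5-fold. In mutants the median was -0.14 and the same pair had the lowest p (*Gsn* 0.40, SE 0.11, and *Cct8* -0.20, SE 0.10).

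SRF and its cofactors, 12 genes tested, did not differ between the genotypes by the thresholds used at either stage. *Srf* itself measured 127 ± 7.82 CPM for the controls of E11.5 and 129 ± 24.7 CPM for their mutants (log2 fold change 0.02, SE 0.15, adjusted p = 0.985 in edgeR). The lowest p at E11.5 belonged to *Elk3*, a ternary complex factor (0.20, SE 0.11, adjusted p = 0.619 in edgeR), and *Hopx*, a homeodomain protein that restrains SRF (-0.32, SE 0.18, adjusted p = 0.645 in edgeR). At E12.5 they belonged to *Hopx* (-0.33, SE 0.09) and *Myocd*, myocardin (-0.27, SE 0.12). With stage in controls 1 of the 12 was called, *Mef2a*, a MADS-box factor related to SRF, which was higher at E12.5 by 1.05 on the log2 scale (SE 0.28, adjusted p = 0.0404 in edgeR). Its E11.5 controls spread from 37.4 to 88.1 CPM and the E12.5 controls from 99.7 to 137 CPM. In mutants none of the 12 was called and *Mef2a* had the lowest p (0.69, SE 0.36), followed by *Mkl2*, a myocardin-related factor (0.19, SE 0.13).

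Of 15 tested SRF target genes outside the actins, none was called between the genotypes at E11.5, where *Mylk*, myosin light chain kinase (-0.95, SE 0.25, adjusted p = 0.204 in edgeR), and *Tagln2*, transgelin 2 (0.45, SE 0.19, adjusted p = 0.455 in edgeR), had the lowest p. None was called at E12.5 either, where *Egr1* (0.71, SE 0.19) and *Csrp1* (0.27, SE 0.07) had the lowest p. With stage in controls 1 was called, *Tagln*, transgelin (SM22), an actin-binding protein of smooth muscle and of the early heart tube. *Tagln* fell from a range of 413 to 538 CPM at E11.5 to 176 to 239.8 CPM a day later (log2 fold change -1.18, SE 0.14, adjusted p = 0.00338 in edgeR). In mutants it went from 312 to 505 CPM to 198 to 252 CPM, with no overlap and a difference of -0.90 on the log2 scale (SE 0.19, adjusted p = 0.1004 in edgeR), and *Egr1* had the next lowest p (1.08, SE 0.24).

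Actin-related proteins and divergent actins, 16 in the table and 10 tested, had 0 calls in each comparison. The lowest p were those of *Actr1b*, a dynactin subunit (0.24, SE 0.14), and *Actl6a*, a chromatin remodelling subunit (-0.11, SE 0.13), at E11.5, and of *Actr5* (0.15, SE 0.11) and *Actr1a* (-0.10, SE 0.08) at E12.5. With stage they were those of *Actr6* (-0.30, SE 0.14) and *Actl6a* (-0.23, SE 0.10) in controls and of *Actr10* (-0.10, SE 0.11) and *Actr1b* (-0.09, SE 0.10) in mutants. In the interaction no gene of the 5 lists was called.

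*Acta1* is also the actin of skeletal muscle, whose precursors lie near the heart, so the markers of that tissue were read beside it. Of 14 genes listed 13 were in the table. At E11.5 *Myod1*, *Myf5*, *Myf6*, *Pax7* and *Pax3*, which define the lineage, had 3 counts or fewer summed over the 3 libraries of either group, and the summed level of the list was lower in the mutants (31.1 to 36.0 CPM) than in the controls (45.4 to 58.1 CPM), with 0 of the 4 tested members positive. Most of that sum in the controls came from *Mybpc1*, *Ckm* and *Actn3*, with means of 21.0, 18.3 and 9.45 CPM. *Acta1* itself had 3473 to 5389 counts in those controls and 6462 to 7955 counts in those mutants. The part of skeletal muscle RNA in these E11.5 values of *Acta1* was not tested.

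At E12.5 the summed level was 79.8 to 85.4 CPM in mutants and 86.4 to 99.99 CPM in controls, most of it *Ckm*, muscle creatine kinase, which the heart also makes. Of the 13 genes, 3 were higher in every E12.5 mutant by CPM (*Myod1*, *Myog* and *Myh3*), 1 was lower in every mutant (*Ckm*) and 9 overlapped. Among all genes tested, 13.6% were higher in every E12.5 mutant, and the share lower in every mutant was not counted. Only 5 of the 13 passed the filter on low values there. *Myod1* had 4, 17 and 9 counts in the mutants and 1, 4 and 0 in the controls. *Myog*, myogenin, had 12, 39 and 20 counts against 10, 12 and 9, and *Myh3*, embryonic myosin heavy chain, had 14, 176 and 33 against 6, 12 and 2. Among those that overlapped, *Chrng*, the fetal subunit of the acetylcholine receptor, had 12, 17 and 10 counts against 16, 33 and 15, and *Myh8*, perinatal myosin heavy chain, had 12, 23 and 17 against 11, 25 and 23. The library with most *Myh3*, E12.5 mutant 2, was the middle one of the 3 mutants in *Acta1*, with 6293 counts. The part of skeletal muscle RNA in the E12.5 values of *Acta1* was not tested either.

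Other cells could carry *Acta2* and the cytoplasmic actins. The smooth muscle list of 8 genes summed to 1030 to 1099 CPM for controls and 926 to 1154 CPM for mutants at E11.5. At E12.5 it summed to 730 to 875 CPM and 806 to 951 CPM, so the genotypes overlapped at both stages. Most of the sum was *Tagln* and *Cnn1* (means of 471.5 and 343.1 CPM in E11.5 controls), which the early heart also makes. Its members moved unlike at E11.5, with log2 fold changes of 0.26 for *Cnn1* and -0.95 for *Mylk*, and 2 of 7 tested were positive. The part of smooth muscle cells in the *Acta2* values was not tested. *Myh11*, the defining myosin of mature smooth muscle, stayed between 0.605 and 3.58 CPM. At E11.5 the endothelial list summed to 1057 to 1294 CPM for controls and 1266 to 1853 CPM for mutants, and it overlapped at E12.5 too (1341 to 1402 CPM and 1337 to 1663 CPM). The epicardial list was lower in E11.5 mutants (522 to 593 CPM against 620 to 918 CPM) and overlapped at E12.5 (594 to 657 CPM in mutants, 418 to 609.8 CPM in controls). At E11.5 the cushion mesenchyme list reached 2899 to 3368 CPM for controls and 2057 to 2913 CPM for mutants, and at E12.5 it was lower in every mutant (3304 to 3770 CPM against 3776 to 4252 CPM).

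Lists of circulating and neighbouring cells were read as well. The macrophage list was lower in mutants at E11.5 (13.7 to 16.1 CPM against 31.3 to 79.7 CPM) and at E12.5 (43.1 to 60.8 CPM against 79.2 to 104 CPM). The erythroid list overlapped at E11.5 (4411 to 5533 CPM in mutants, 4281 to 5359 CPM in controls) and was lower in mutants at E12.5 (2083 to 2632 CPM against 3792 to 6177 CPM). Liver markers stayed at or under 55.8 CPM in every library. The part of these cells in the actin values was not tested.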

How the data were processed

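Whole embryonic hearts were profiled by paired-end RNA-seq. Per the labels and the study's methods, RNA was extracted with an RNeasy kit and reads were aligned with BOWTIE (Bowtie2 version 2 and mm10 in the submitters' processing notes) and normalised with DEseq. The series' own design text names another sequencer than the methods do. The counting program, the annotation, the use of strand and the handling of reads with several matches are not given in the sources used here.

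The authors deposited 1 table of signal values named RPKM for 12 libraries, and, for each stage, 1 table comparing the genotypes with the average count of each group. The deposited average counts, which like expected counts need not be whole, are means of the whole counts of 3 libraries. The authors' fold changes, z scores and p-values in the comparisons were not used, and 0 per-sample columns were left out. The deposited signal values are not RPKM. Each was a whole count multiplied by a gene length and a library factor. The factors were solved from the deposited averages, and whole counts were recovered for 17827 of 19424 genes in the comparisons, with a largest distance from a whole number of 1.41e-05. The other 1597 had no count. Counts as recovered, 11994148 to 17483982 per library, were used for all tests. *Hira* mutants and controls were grouped by the labels.

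edgeR 4.0.16 (quasi-likelihood test, TMM scaling, Benjamini-Hochberg adjustment over all genes tested) was fitted to the 2 groups compared, on genes with a mean of at least 0.5 RPKM. Calls needed an adjusted p no higher than 0.05 and a change no smaller than 1.5-fold. Levels are TMM-scaled CPM over all 12 libraries, and RPKM is that CPM divided by the gene length in the deposited values. Shares were tested by exact permutation in Python 3.11.15 (numpy 2.4.6). On simulated counts with 200 genes changed, 80.7% of changes of 2-fold were recovered in the E11.5 comparison of genotypes (12189 genes tested) and 90.4% in the comparison of stages in controls (12228 genes). The changed genes were drawn from well-counted genes only, and the simulated libraries held no difference of sex. Recovery of changes between 1.5-fold and 2-fold was not simulated. Replicate numbers were not treated as pairs in the main fits. Correlations of same-numbered deviations ran from -0.12 to 0.42, with 0.42 and 0.29 for replicates 2 and 3 between the genotypes at E11.5. Libraries of unlike number were not correlated for reference, so pairing by number is not settled. Alternatives were other filters, scalings, tools (DESeq2 1.42.0, limma 3.58.1 with pseudocounts of 0.5, 0.1 and 1), a replicate block, sex and each library left out.

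The 6 genes, the lists and the tests were chosen with earlier results of these data known. Named genes are the 6 actins, the called members of 5 lists (actin partners, monomer and turnover factors, SRF and cofactors, SRF targets, actin-related genes) or else the 2 of lowest p, and the 3 genes most alike to each actin by Pearson r of log2(CPM + 0.5). Promoters came from RefSeq and transcripts from GENCODE M21.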

Additional observations from a re-analysis of the deposited data

How the results depend on the processing

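Of 534 values of single actins under the alternatives, 507 kept their direction and their side of the thresholds. For most of them this means that a value not called stayed so, since only *Acta1* at E12.5 was called in the main fits. That value lost its call in 6 of 17 alternatives. With DESeq2 and with no filter on low values, 1 actin (*Acta1*) was called at E11.5 instead of 0. At E12.5, where the count is a description and no test, it was 0 instead of 1 with DESeq2 and with all 12 libraries in a single fit, and from 0 to 1 over the fits that left out 1 library. With stage in controls 1 actin (*Actg1*) was called with no fold threshold, and from 0 to 1 (*Acta1*) over the fits that left out 1 library. With sex as a covariate the E11.5 values of *Actc1*, *Actg2* and *Actg1* turned to 0.0167, 0.042 and 0.046, the stage values of *Actc1* and *Actg2* in controls to 0.0235 and 0.00308, and the interaction of *Acta1* to -0.0418. Leaving out 1 library moved the E11.5 values of *Actb* between -0.0658 and 0.105 and of *Actg2* between -0.687 and 0.055, the stage value of *Actc1* in controls between -0.144 and 0.00668, and the interaction of *Acta1* between -0.1403 and 0.328 and of *Acta2* between -0.0383 and 0.192, so these small values have no settled sign. The cytoplasmic share at E11.5 ran from -1.24 to 0.136 percentage points.

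Permuting stage within replicate numbers (replicate block) left the shares at 5.19, -2.99 and -1.18 percentage points for the cardiac, smooth muscle and skeletal class, with adjusted p = 0.0625, 0.0625 and 0.125 in exact permutation tests, of which fewer arrangements were possible. The skeletal difference with stage ran from -1.41 to -0.949 points over libraries left out. The block changed no call of an actin in edgeR. It moved the number of genes called at E11.5 from 14 to 73 and with stage in mutants from 68 to 36.

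Counts of all genes called varied widely. At E11.5 they were 73 with no filter, 6 at a mean of at least 5 RPKM, 248 with DESeq2, 29 with sex as a covariate, 221 with all 12 libraries and 0 to 15 with 1 library left out. At E12.5 they were 157 at a mean of at least 5 RPKM, 132 with all 12 libraries, 613 with no fold threshold and 151 to 368 with 1 library left out. With stage in controls they were 363, 336 and 1402 in these 3 settings, 19 with sex as a covariate and 44 to 1407 with 1 library left out. With stage in mutants they were 119 with no filter, 29 at a mean of at least 5 RPKM, 227 with DESeq2, 119 with all 12 libraries and 1 to 123 with 1 library left out. For the interaction they were 43 with DESeq2 and 0 to 10 with 1 library left out. The causes were not tested. At 3 libraries a group, *Actg2*, with 65 to 217 counts, is the least precise of the 6.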
